A study of Mus musculus with 10 samples.

Results

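The genes described here encode the proteins of the cytosolic ribosome. They were chosen by symbol and by no measured value: every gene whose symbol has the form Rpl or Rps followed by a number, with an optional closing letter a, x, y or l, together with Rpsa, Rplp0, Rplp1 and Rplp2. Rps6 kinases and genes named as pseudogenes were left out. The rule found 59 of the 19938 genes measured, 37 of the large subunit and 22 of the small subunit. All 59 matched a RefSeq gene, and 1 of them, Rps4l, is annotated there as a transcribed pseudogene. Another 16 genes of this form, among them Rpl3, Rpl11, Rpl13a, Rps16 and Rps27, were present only on probe sets that carry several symbols and are not among the 59.

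Ribosomal proteins assemble with ribosomal RNA in the nucleolus and cytoplasm into a small subunit, which decodes the mRNA, and a large subunit, which forms the peptide bond. Their mRNAs are among the most abundant of a T cell. They typically begin with a terminal oligopyrimidine (TOP) tract, through which the kinase complex mTORC1 and the RNA-binding protein Larp1 control their translation, and activated T cells raise ribosome production together with Myc.

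The cells were regulatory T cells (Tregs) of the spleen of female C57BL/6 mice 9 to 14 weeks old, sorted by CD4 and a red fluorescent reporter of Foxp3, the transcription factor that defines Tregs. Surface markers split them further. The 2 FR1 arrays hold cells that are CD62Lhi, CD69- and Klrg1-, and the 2 FR2 arrays hold cells that are CD62Llo, CD69- and Klrg1-. FR3 cells are CD62Llo and CD69+, without Klrg1 on 4 arrays (FR3 Klrg1-) and with it on 1 (FR3 Klrg1+). CD62L is a homing receptor of lymph nodes, CD69 an early activation marker and Klrg1 a receptor of terminally differentiated lymphocytes. 1 further array carried labels of 2 groups and entered no comparison.

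Values are log2 intensities from Affymetrix arrays, deposited after robust multi-array averaging (RMA). By their correlation the arrays fell into 2 sets. FR3 Klrg1- replicates 3 and 4 and the Klrg1+ array made up the second set, and all other grouped arrays, with FR3 Klrg1- replicates 1 and 2 among them, made up the first. Arrays correlated at 0.980 to 0.995 within a set and at 0.925 to 0.946 between sets, so groups were compared within a set. The Treg and T cell markers were high throughout, with a mean over 8 genes of 11.3 to 11.7 on every array. The median of all genes lay between 6.22 and 6.39. Replicates are labelled as biological, but the animals behind each array are not given in the sources used here, so p-values measure only the spread between these arrays.

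Because ribosomal protein mRNAs are known for an oligopyrimidine start, the starts of 7 members to which the results return are shown here, each from 45 bases before to 15 bases after the RefSeq start on GRCm38.p6, with the longest run of C and T in capitals. They lie at chr7:3703996-3704055 on the plus strand (Rps9), chr17:27635230-27635289 on the minus strand (Rps10), chr17:33955651-33955710 on the minus strand (Rps18), chr7:118116133-118116192 on the minus strand (Rps15a), chr7:141447606-141447665 on the plus strand (Rplp2), chr4:86857353-86857412 on the minus strand (Rps6) and chrX:74270771-74270830 on the plus strand (Rpl10).
Rps9: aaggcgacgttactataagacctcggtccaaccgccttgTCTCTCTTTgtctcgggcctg
Rps10: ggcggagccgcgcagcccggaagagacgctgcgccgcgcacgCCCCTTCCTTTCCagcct
Rps18: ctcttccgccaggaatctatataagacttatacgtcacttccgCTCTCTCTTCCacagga
Rps15a: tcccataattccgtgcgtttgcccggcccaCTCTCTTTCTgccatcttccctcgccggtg
Rplp2: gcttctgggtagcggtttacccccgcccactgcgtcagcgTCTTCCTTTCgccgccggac
Rps6: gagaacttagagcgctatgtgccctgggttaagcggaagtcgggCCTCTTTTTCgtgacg
Rpl10: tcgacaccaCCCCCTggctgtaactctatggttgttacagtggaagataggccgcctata
In Rps9, Rps10, Rps18, Rplp2 and Rps6 the capitals reach the annotated start. In Rps15a they end before it, but a second, shorter run in small letters, tcttccctc, spans the start. In Rpl10 the longest run lies well upstream and is only 6 bases long. RefSeq promoter windows were at hand for 47 members, in 56 windows. A run of at least 6 C or T within the 30 bases around the start was present in 48.2% of the member windows and in 29.2% of all 32851 windows. The Ets-type motif CCGGAAG, searched on both strands, occurred in 33.9% of the member windows against 8.86% of all windows, and the E-box CACGTG in 12.5% against 7.15%. TATAAA on the transcript strand was as frequent in the members (8.93%) as elsewhere (8.32%).

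The ribosomal protein genes were highest in FR1 and lower in both CD62Llo groups of the same set. The median of the 59 genes was 12.67 and 12.55 on the FR1 arrays, 12.19 and 12.40 on the FR2 arrays, and 12.37 and 12.38 on the FR3 Klrg1- arrays of the first set. In the second set it was 12.44 and 12.42 for FR3 Klrg1- and 12.23 for FR3 Klrg1+. Neither CD62Llo group overlapped FR1, and the Klrg1+ array lay below both of its Klrg1- counterparts. These are bright genes: 46 of the 59 were above the percentile 95 of every grouped array. Only Rpl39l was under the percentile 25 (5.10 to 5.33 by array) on every grouped array. Rpl10l was under it on the 3 arrays of the second set, and Rpl3l on some arrays. All genes, against which the 59 are set below, include many dim ones, and genes of like brightness were not compared apart. In bulk RNA, fewer cells with a high level and less RNA per cell cannot be told apart.

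**Figure D1:**
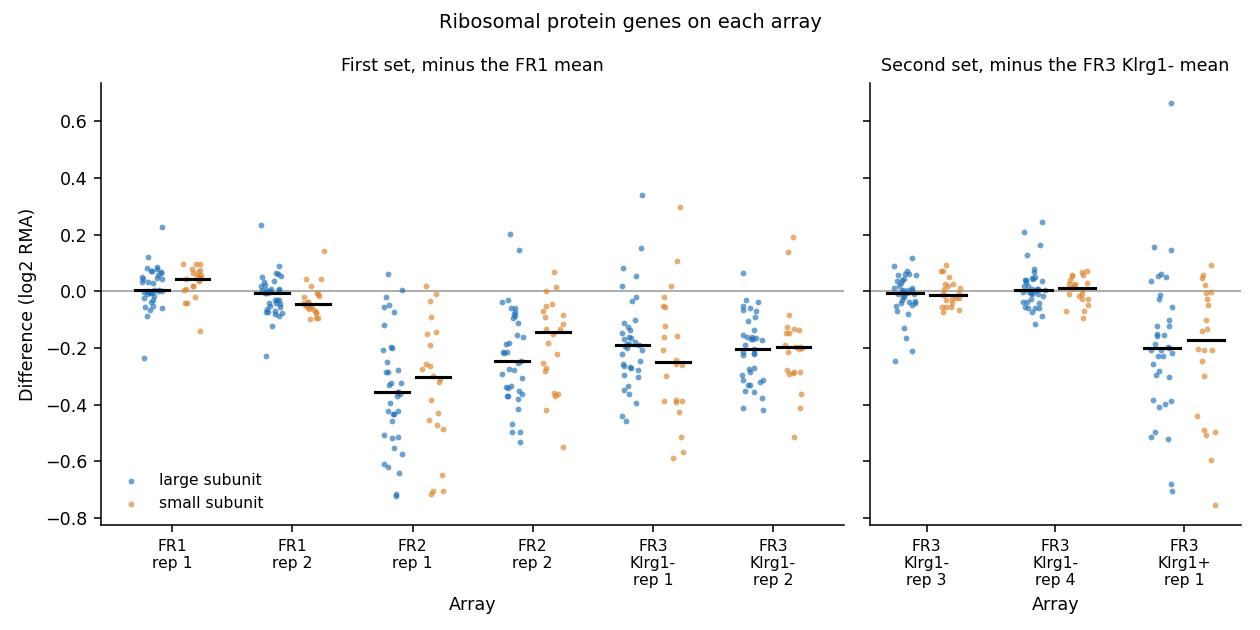
Difference in log2 RMA value of each of the 59 ribosomal protein genes on each array from the mean of FR1 (first set, left) or from the mean of FR3 Klrg1- (second set, right). Points are genes, blue for the large and orange for the small subunit, and black lines are medians. Most points of the FR2, FR3 Klrg1- and FR3 Klrg1+ arrays lie below 0, and those of FR2 replicate 1 lie lower than those of FR2 replicate 2.

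Replicates were closest in FR3 Klrg1- and farthest apart in FR2. The median difference between replicates 1 and 2 over the 59 genes was 0.06 in FR1 and -0.02 in FR3 Klrg1- of the first set, and -0.02 between replicates 3 and 4. In FR2 it was -0.14, and 52 of the 59 genes were lower on replicate 1, against 54.6% of all genes. FR2 replicate 1 is therefore the lowest array of the first set for these genes. The median of the 59 genes in comparisons with FR2 is also given without it, with whether the calls held. Values of single genes and of other gene lists are given only with it.

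The first comparison, FR2 against FR1, follows the loss of CD62L in cells without CD69. Ribosomal protein genes were lower in FR2 by a median log2 of -0.27 (interquartile range -0.39 to -0.16), which is 83.2% of the FR1 level, while the median of all genes was 0.02. The median was -0.30 for the large and -0.21 for the small subunit, and 55 of 59 genes were below 0, against 45.2% of all genes. With genes under the percentile 40 of intensity left out, the median of the remaining genes was -0.02. Without FR2 replicate 1 the median was -0.21, and after quantile normalization it was -0.15. In limma with Benjamini-Hochberg adjustment over all genes, 9 of the 59 fell and 0 rose, against 2.3% and 1.96% of all genes. At an unadjusted p under 0.05 there were 28 lower and 0 higher genes (9.55% and 7.62% of all genes). The arrays of the groups did not overlap for 47 lower genes and 0 higher ones (23.1% and 25.4% of all genes).

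The 3 small subunit genes that fell in FR2 were Rps9, Rps18 and Rps15a, whose starts are shown above. Rps9, a protein of the small subunit body, measured 12.46 and 12.37 in FR1 and 11.71 and 11.87 in FR2, a difference of -0.63 ± 0.13 (SE; adjusted p = 0.0115, limma with Benjamini-Hochberg adjustment). Rps18, a protein of the small subunit head, measured 13.33 and 13.41 in FR1 and 12.66 and 12.95 in FR2 (-0.56 ± 0.14, adjusted p = 0.0302). Rps15a measured 9.21 and 9.25 in FR1 and 8.51 and 8.86 in FR2 (-0.54 ± 0.14, adjusted p = 0.0406). For each of them both FR2 arrays lay below both FR1 arrays. Rps27l, a p53-induced paralog of Rps27, came next with 7.47 and 7.75 in FR1 and 6.96 and 7.42 in FR2 (-0.41 ± 0.16, adjusted p = 0.176) and did not pass the test.

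On the large subunit 6 genes fell in FR2. Rpl10, which joins the large subunit late and completes its catalytic centre, measured 13.30 and 13.31 in FR1 and 12.59 and 12.81 in FR2 (-0.60 ± 0.13, adjusted p = 0.0165, limma with Benjamini-Hochberg adjustment). Rpl36 measured 12.56 and 12.47 against 11.79 and 12.05 (-0.59 ± 0.15, adjusted p = 0.0306). Rpl24, which forms a bridge between the subunits, measured 12.21 and 12.27 against 11.62 and 11.71 (-0.58 ± 0.13, adjusted p = 0.0211). In all these genes the groups were apart by more than the spread within either. Rplp2, an acidic protein of the stalk that recruits elongation factors, measured 8.10 and 7.999 against 7.44 and 7.64 (-0.51 ± 0.14, adjusted p = 0.0494). Rpl12, at the base of that stalk, fell by 0.51 (adjusted p = 0.0454) and Rpl41, the smallest ribosomal protein, by 0.51 (adjusted p = 0.0347).

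A few members showed differences near 0. Rps6, the ribosomal protein phosphorylated by S6 kinase downstream of mTORC1, measured 13.30 and 13.29 in FR1 and 13.26 and 13.25 in FR2 (-0.04 ± 0.12, adjusted p = 0.921, limma with Benjamini-Hochberg adjustment). Its difference was smaller than its SE, and its start, shown above, carries a long pyrimidine run. The difference is that of its brightest probe set. All 8 of its probe sets were below 0, from -0.20 to -0.04, with a median of -0.11. The highest members of the comparison were Rpl39l (0.09 ± 0.16, adjusted p = 0.842) and Rpl3l (0.05 ± 0.16, adjusted p = 0.93) on the large subunit, and Rps4x (0.03 ± 0.13, adjusted p = 0.946) and Rps12 (0.02 ± 0.13, adjusted p = 0.97) on the small one. Rpl39l measured 4.43 and 3.98 in FR1 and 4.18 and 4.40 in FR2, Rpl3l 5.10 and 4.93 against 4.96 and 5.16, Rps4x 13.07 and 13.05 against 13.05 and 13.13, and Rps12 12.87 and 12.71 against 12.81 and 12.81. In all 4 the groups overlapped. The dim Rpl39l and Rpl3l are tissue-restricted paralogs, of testis and of muscle respectively.

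With 1 array left out, the median log2 fold change of the members in FR2 against FR1 stayed at -0.33 to -0.21. The 9 calls of that comparison cannot be traced to a single array, because omitting an FR1 or FR2 array leaves its group with 1. All 9 were lost without FR1 replicate 1, FR1 replicate 2 or FR2 replicate 1, and not all held without FR2 replicate 2. In each case fewer of all genes passed as well. The number of calls was 5 without FR3 Klrg1- replicate 1 or 2, where 362 of all genes were called lower. It was 26 when the prior variance followed intensity. In the model without the array set no member was called, with 14 lower at an unadjusted p under 0.05. Of all genes, 11 were called lower in that model, 738 with the intensity trend and 459 in the main fit.

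**Figure D2:**
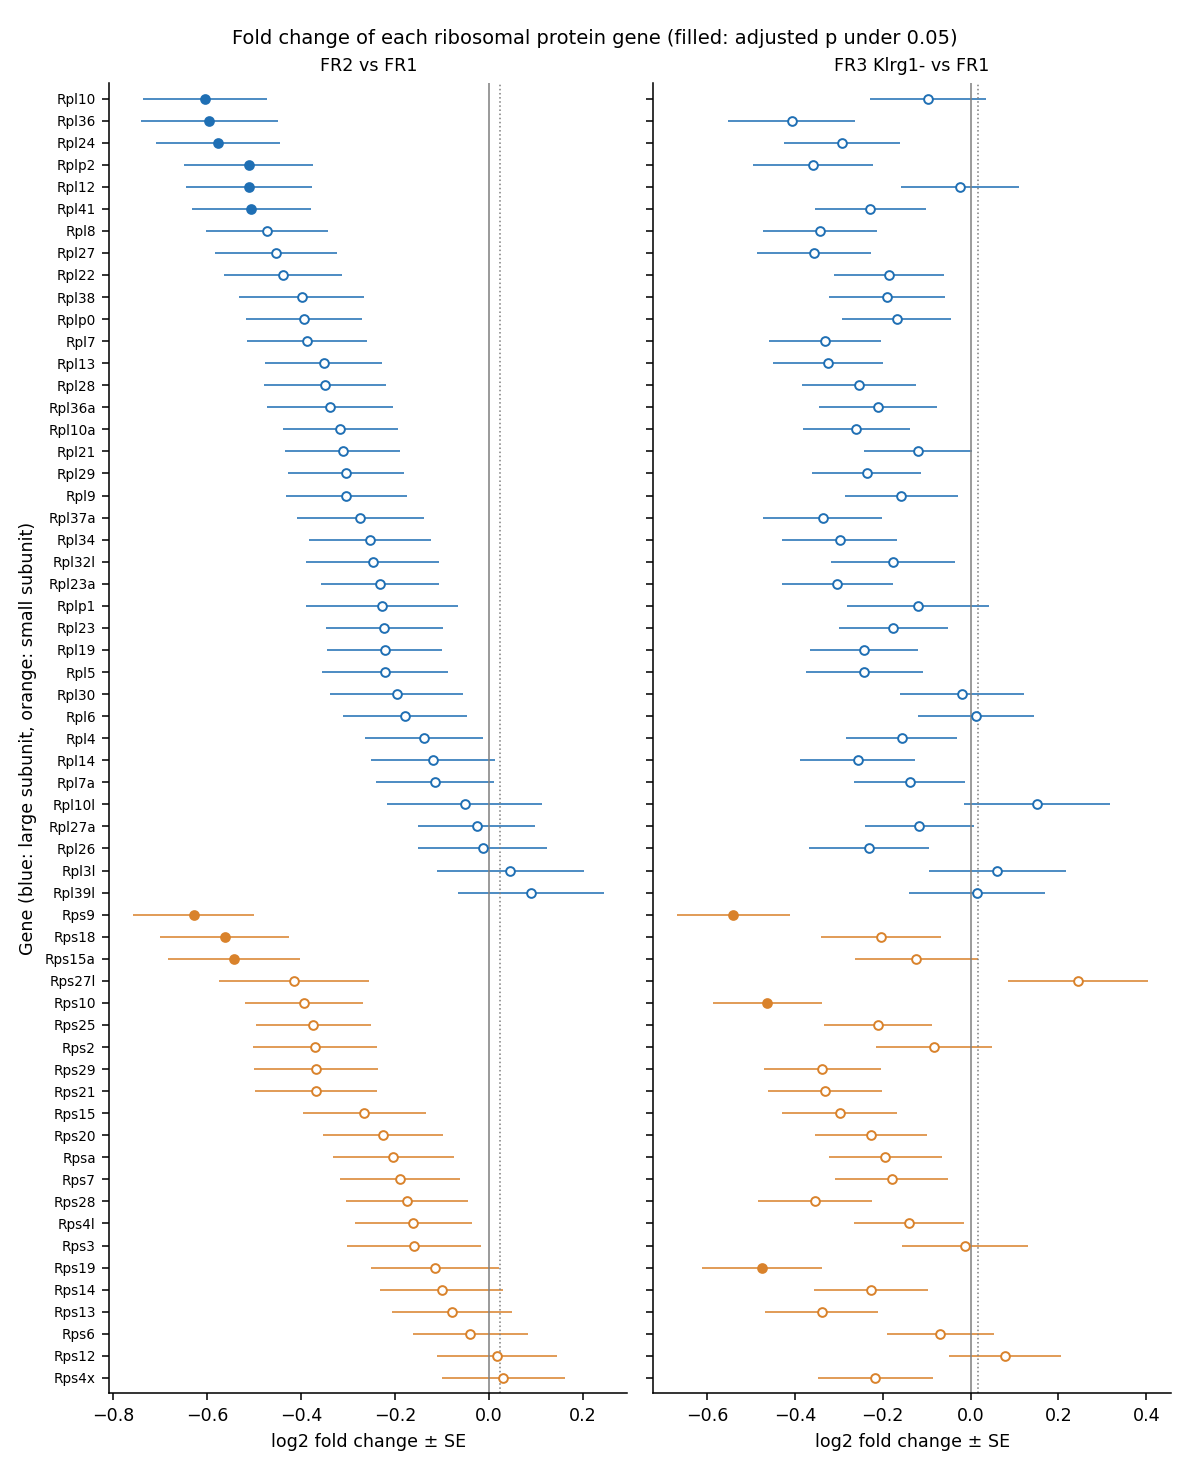
Log2 fold change with its SE for each of the 59 ribosomal protein genes in FR2 against FR1 (left) and FR3 Klrg1- against FR1 (right), in the same gene order. Large subunit genes are blue and small subunit genes orange, filled points passed the test, and the dotted line is the median of all genes. Most genes lie left of 0 in both panels, with Rps9 and Rpl10 the lowest of their subunits on the left.

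FR3 Klrg1- was next compared with FR1 in the first set, where cells differ in both CD62L and CD69. It shares the FR1 arrays with the comparison above, so the values are given side by side and not as a second observation. The median of the 59 genes was -0.21 (86.4% of the FR1 level), -0.21 in either subunit, against 0.02 for all genes. Below 0 were 53 of 59 genes, against 46.6% of all genes. By limma with Benjamini-Hochberg adjustment 3 members fell and 0 rose (3.79% and 4.39% of all genes), and 18 were lower and 0 higher at an unadjusted p under 0.05 (8.8% and 9.39% of all genes). For 50 lower genes and 1 higher gene the groups did not overlap (23.6% and 25.3% of all genes). The 3 calls were all lost without FR1 replicate 1, FR1 replicate 2, FR3 Klrg1- replicate 1 or FR3 Klrg1- replicate 2. In each case a group was left with 1 array in this set, and fewer of all genes passed as well.

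The 3 genes that fell in FR3 Klrg1-, of 59 members and against 3.79% of all genes, belong to the small subunit. At an unadjusted p under 0.05 in limma the subunits were alike, with 8 of 22 small and 10 of 37 large subunit genes lower. Rps9 measured 11.85 and 11.90 there against 12.46 and 12.37 in FR1 (-0.54 ± 0.13, adjusted p = 0.0150, limma with Benjamini-Hochberg adjustment). Rps19, the gene first linked to Diamond-Blackfan anaemia, measured 10.96 and 11.19 against 11.65 and 11.46 (-0.47 ± 0.14, adjusted p = 0.0446). Rps10 measured 12.10 and 12.21 against 12.64 and 12.60 (-0.46 ± 0.12, adjusted p = 0.0314). In each case both FR3 arrays were below both FR1 arrays. Rps28 followed with 12.01 and 12.15 against 12.49 and 12.38 (-0.35 ± 0.13, adjusted p = 0.132). On the large subunit none passed the test.

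The lowest large subunit genes in FR3 Klrg1- were Rpl36, Rplp2, Rpl27 and Rpl8. Rpl36 measured 12.08 and 12.14 in FR3 Klrg1- and 12.56 and 12.47 in FR1 (-0.41, adjusted p = 0.119, limma with Benjamini-Hochberg adjustment). Rplp2 measured 7.69 on both FR3 arrays and 8.10 and 7.999 in FR1 (-0.36, adjusted p = 0.152). Rpl27 measured 11.85 and 11.93 against 12.30 and 12.19 (-0.36, adjusted p = 0.128). These differences exceeded the spread of the arrays without reaching the threshold. Rpl8 measured 12.54 and 12.40 against 12.82 and 12.81 (-0.34, adjusted p = 0.147). The highest members were Rps27l, at 7.90 and 7.80 against 7.47 and 7.75 (0.24 ± 0.16, adjusted p = 0.496), and Rps12, at 12.81 and 12.93 against 12.87 and 12.71 (0.08, adjusted p = 0.849). On the large subunit they were Rpl10l, at 6.11 and 5.74 against 5.54 and 6.01 (0.15, adjusted p = 0.742), and Rpl3l, at 5.17 and 4.99 against 5.10 and 4.93 (0.06, adjusted p = 0.911).

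FR3 Klrg1- against FR2 asks what accompanies CD69 in cells that are all CD62Llo. It uses the FR2 and FR3 Klrg1- arrays of the comparisons above, so it is not a separate observation. As a group the ribosomal protein genes hardly differed, with a median of 0.06 (large subunit 0.09, small subunit 0.01) against -0.00 for all genes. Without FR2 replicate 1 the median was 0.0014, and the small subunit median ranged from -0.03 to 0.11 over other settings, with a change of sign. Above 0 were 39 of 59 genes, against 49.2% of all genes. By limma with Benjamini-Hochberg adjustment 2 members rose and 0 fell (2.81% and 1.94% of all genes), with 8 higher and 1 lower at an unadjusted p under 0.05 (8.99% and 6.7% of all genes). The groups did not overlap for 19 higher and 8 lower genes (24.7% and 24.2% of all genes).

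Rpl10 and Rps27l were the genes that rose in FR3 Klrg1- over FR2. Rpl10 measured 13.29 and 13.13 in FR3 Klrg1- and 12.59 and 12.81 in FR2 (0.51 ± 0.13, adjusted p = 0.0396, limma with Benjamini-Hochberg adjustment), and its FR1 values were 13.30 and 13.31. Rps27l measured 7.90 and 7.80 against 6.96 and 7.42 (0.66 ± 0.16, adjusted p = 0.0267). Both genes were higher on either FR3 array than on either FR2 array. Close behind were Rpl12, at 8.92 and 8.84 against 8.26 and 8.53 (0.49 ± 0.13, adjusted p = 0.0540), and Rps15a, at 9.17 and 9.04 against 8.51 and 8.86 (0.42 ± 0.14, adjusted p = 0.121). Neither call of a rise remained without FR2 replicate 1, FR3 Klrg1- replicate 1 or FR3 Klrg1- replicate 2. The calls did not both hold without FR1 replicate 1, FR1 replicate 2 or FR2 replicate 2, or with the replicate number as a block. In each of these settings fewer of all genes passed as well.

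Among the lower members of this comparison Rps19 led. It measured 10.96 and 11.19 in FR3 Klrg1- and 11.41 and 11.47 in FR2 (-0.36 ± 0.14, adjusted p = 0.184, limma with Benjamini-Hochberg adjustment). Rps13 measured 11.45 and 11.55 against 11.75 and 11.77 (-0.26), Rps4x 12.77 and 12.93 against 13.05 and 13.13 (-0.25), and Rps28 12.01 and 12.15 against 12.17 and 12.34 (-0.18). All 4 had arrays that did not overlap, and none passed the test. On the large subunit Rpl26 measured 10.47 and 10.61 against 10.83 and 10.68 (-0.22), Rpl14 8.87 and 8.72 against 9.003 and 8.87 (-0.14), Rpl27a 12.89 and 13.02 against 13.08 and 13.02 (-0.09) and Rpl39l 4.17 and 4.27 against 4.18 and 4.40 (-0.07). The last 3 overlapped.

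**Figure D3:**
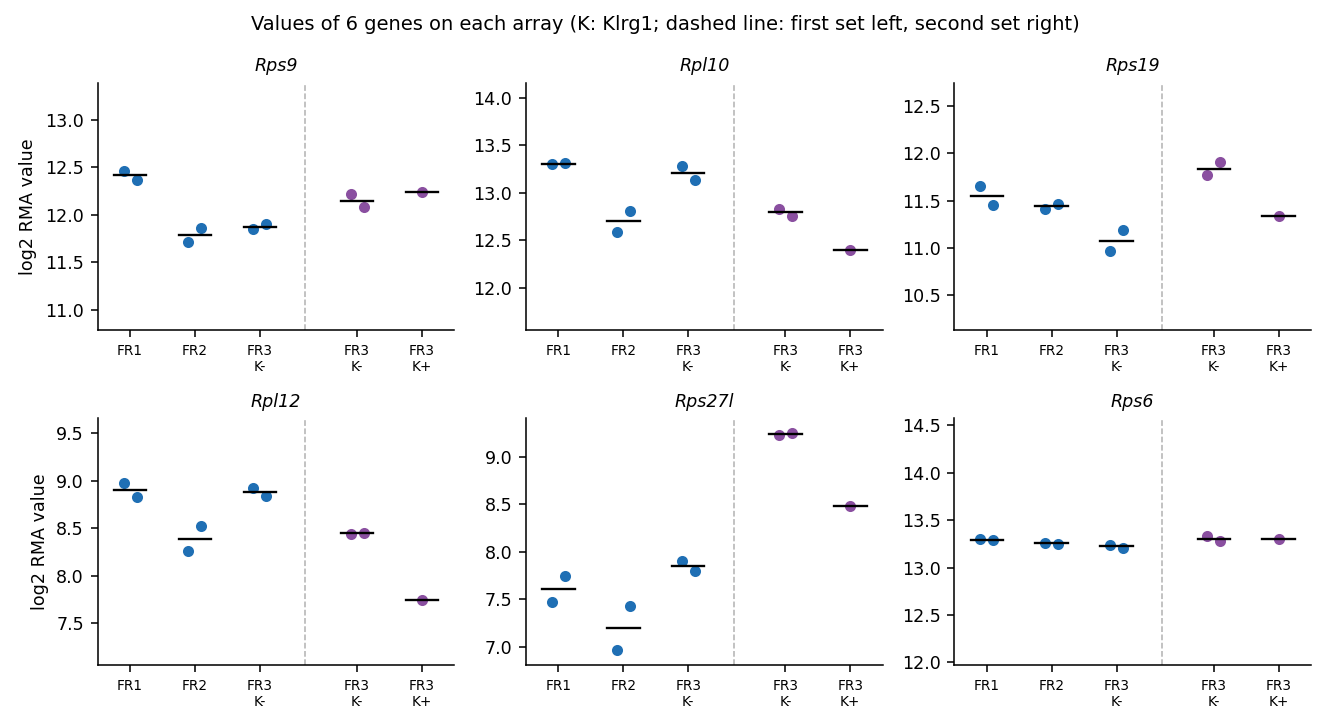
Log2 RMA value of 6 ribosomal protein genes on each of the 9 grouped arrays, with points for arrays and lines for group means. The dashed line separates the first set (blue, left) from the second (purple, right), across which levels are not compared, and every panel spans the same range. Rps9 is lower in FR2 and FR3 Klrg1- than in FR1, Rpl10 and Rpl12 are lowest in FR2 among the groups of the first set, Rps19 is lowest there in FR3 Klrg1-, and the Rps6 values lie close together.

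The last comparison within a set was FR3 Klrg1+ against FR3 Klrg1-, with 1 array against 2, and the spread of the single Klrg1+ array taken from the other groups. The 59 genes were lower in the Klrg1+ sample by a median of -0.20 (87.1% of the Klrg1- level), -0.20 for the large and -0.17 for the small subunit, against 0.00 for all genes. Below 0 were 48 of 59 genes, against 49.9% of all genes. By limma with Benjamini-Hochberg adjustment 2 members fell and 0 rose (2.82% and 2.14% of all genes), with 15 lower and 1 higher at an unadjusted p under 0.05 (10.6% and 9.38% of all genes). The Klrg1+ value lay below both Klrg1- values for 45 genes and above both for 8 (36.0% and 36.5% of all genes). In the model without the array set the median was -0.11 and no member was called, with 9 lower at an unadjusted p under 0.05. The 2 calls did not both hold without FR3 Klrg1- replicate 1 or 2, where 403 of all genes were called lower, against 563 in the main fit. Nor did they without replicate 4, which leaves 1 array on either side.

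Rpl12 and Rps27l were the genes that fell in the Klrg1+ sample. Rpl12 measured 7.74 there and 8.44 and 8.45 in FR3 Klrg1- (-0.71 ± 0.16, adjusted p = 0.0241, limma with Benjamini-Hochberg adjustment). Rps27l measured 8.48 against 9.22 and 9.25 (-0.75 ± 0.19, adjusted p = 0.0387). In both genes the Klrg1+ value lay far below 2 Klrg1- replicates that were close together. Next on the small subunit were Rps15a, at 8.10 against 8.67 and 8.72 (-0.60 ± 0.17, adjusted p = 0.0609), Rps25, at 11.96 against 12.44 and 12.49 (-0.51, adjusted p = 0.0690), and Rps19, at 11.34 against 11.76 and 11.91 (-0.50, adjusted p = 0.107). Next on the large subunit were the dim Rpl39l, at 3.87 against 4.51 and 4.59 (-0.68, adjusted p = 0.0541), Rplp1, at 11.92 against 12.19 and 12.68 (-0.52, adjusted p = 0.152), and Rpl6, at 11.22 against 11.79 and 11.67 (-0.51, adjusted p = 0.0852).

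A few members went the other way in the Klrg1+ sample without passing the test. Rpl10l, a testis-enriched copy of Rpl10, measured 5.03 against 4.41 and 4.33 (0.66 ± 0.20, adjusted p = 0.0756, limma with Benjamini-Hochberg adjustment), while Rpl10 itself measured 12.40 against 12.83 and 12.76. Rpl3l measured 5.37 against 5.002 and 5.42 (0.16, adjusted p = 0.709), Rps9 12.24 against 12.22 and 12.08 (0.09, adjusted p = 0.796) and Rps12 13.19 against 13.10 and 13.16 (0.06, adjusted p = 0.885). Rps9, which fell in both comparisons with FR1, did not fall here. Rps6 measured 13.30, between its Klrg1- values of 13.33 and 13.28.

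**Figure D4:**
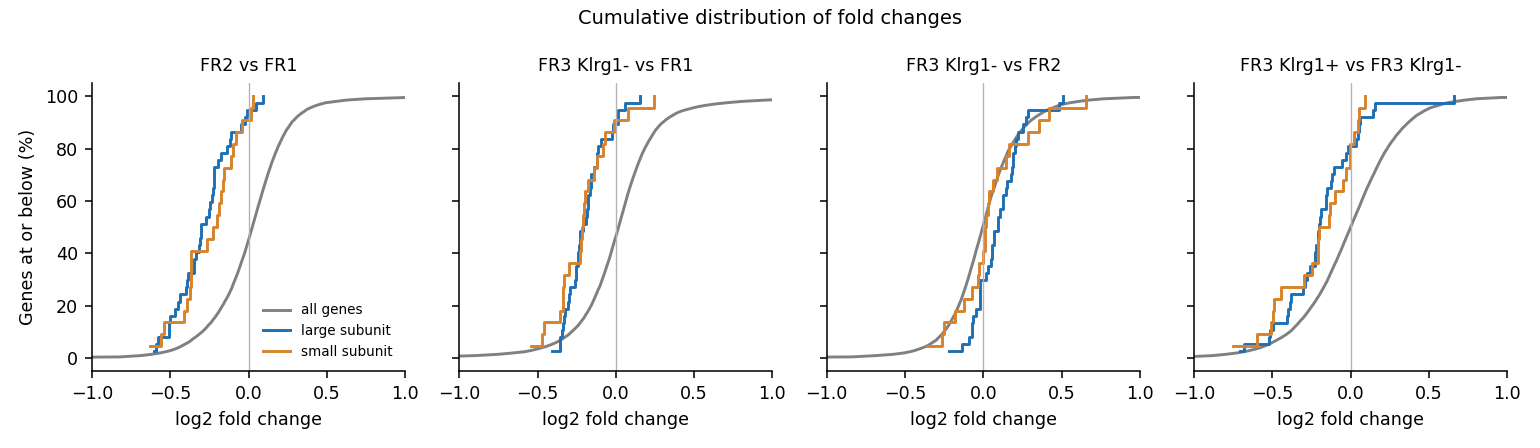
Cumulative share of genes (percent) at or below each log2 fold change, for all 19938 genes (grey), the large subunit (blue, 37 genes) and the small subunit (orange, 22 genes), in the 4 comparisons within a set. The subunit curves lie left of the grey curve in 3 panels, with medians of -0.27, -0.21 and -0.20 over the 59 genes, and close to it in FR3 Klrg1- against FR2 (0.06).

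The comparison of FR3 Klrg1+ with FR3 Klrg1- shares no array with FR2 against FR1, and none with the other comparisons of the first set. As a description across the 59 genes, which are not independent replicates, its fold changes correlated weakly with those of FR2 against FR1 (Pearson r = 0.26, Spearman rho = 0.28), not with those of FR3 Klrg1- against FR1 (r = -0.0044, rho = -0.01), and weakly and negatively with those of FR3 Klrg1- against FR2 (r = -0.26, rho = -0.24). Without the dim Rpl39l, r and rho were 0.36 and 0.34, 0.05 and 0.03, and -0.30 and -0.29, in the same order of comparisons. Rpl12 fell both in FR2 and in the Klrg1+ sample. Rps15a fell in FR2 and was at -0.60 in the Klrg1+ sample without passing the test.

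Between the array sets these genes moved in both directions, in cells of the same label. For FR3 Klrg1- in the first set against the second, limma with Benjamini-Hochberg adjustment called 15 members higher and 17 lower (19.3% and 18.9% of all genes), and the median was -0.08. The arrays of the sets did not overlap for 26 higher and 29 lower members (32.2% and 34.5% of all genes). Rpl14 measured 8.87 and 8.72 in the first set and 10.63 and 10.45 in the second (-1.75), Rps21 12.07 and 12.18 against 13.39 and 13.40 (-1.27), and Rps27l 7.90 and 7.80 against 9.22 and 9.25 (-1.38). Rps2 measured 13.56 and 13.43 against 12.25 and 12.11 (1.32), Rpl10l 6.11 and 5.74 against 4.41 and 4.33 (1.56), and Rpl32l 9.13 and 9.16 against 7.95 and 7.97 (1.19). These differences were larger than that of any member between groups of a set.

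Further members lower in the first set were Rpl37a, at 11.30 and 11.54 against 12.45 and 12.56 (-1.09), Rpl27, at 11.85 and 11.93 against 12.95 and 12.99 (-1.08), Rpl26, at 10.47 and 10.61 against 11.34 and 11.48 (-0.87), Rps13, at 11.45 and 11.55 against 12.37 and 12.35 (-0.86), and Rps29, at 12.56 and 12.65 against 13.38 and 13.49 (-0.83). Fold changes between -0.81 and -0.37 were called for Rpl36, Rpl22, Rps19, Rps28, Rps20, Rpl36a, Rps4x, Rpl24 and Rpl41. Fold changes between 0.37 and 1.00 were called for Rpl21, Rps7, Rps15a, Rpl10, Rpl12, Rplp0, Rpl5, Rpl9, Rpl19, Rpl8, Rpl6 and Rplp1. Proteins of both subunits were thus called on either side. At the ribosomal stalk Rplp0, Rplp1 and Rpl12 were called higher in the first set, and Rplp2 was lower there without passing the test (-0.29). What set the arrays apart was not tested.

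Ribosomal protein mRNAs have many processed copies in the genome, and several members have more than 1 probe set. Of the 59, 39 had several, up to 14 for Rps12, and the brightest was used. The other 156 probe sets had the sign of the brightest in 146 cases (93.6%) for FR2 against FR1, in 150 (96.2%) for FR3 Klrg1- against FR1, in 136 (87.2%) for FR3 Klrg1- against FR2 and in 128 (82.1%) for Klrg1+ against Klrg1-. Signal from near-identical copies may not be separated on the array, so single members remain uncertain where their probe sets disagree, as for Rps12.

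The rest of the translation machinery was measured on the same arrays. In FR2 against FR1 the nucleolar and assembly factors were lower with the ribosomal proteins: 7 of 41 fell, 0 rose, and 40 of 41 were below 0 (median -0.29), where 2.3% of all genes fell, 1.96% rose and 45.2% were below 0. They included Rrp9 (-0.74), which binds the U3 small nucleolar RNA, the H/ACA particle proteins Nhp2 (-0.80) and Nop10 (-0.66), and Mybbp1a (-0.65). Of the mitochondrial ribosomal proteins, which serve a separate ribosome, 9 of 77 fell and 69 were below 0 (median -0.25), beside the same shares of all genes, led by Mrpl23 (-1.03), Mrps33 (-0.77), Mrps27 (-0.72) and Mrpl22 (-0.79). Of the 26 initiation factors, Eif3k (-0.71) and Eif2b2 (-0.62) fell (median -0.36), and of the 5 elongation factors Eif5a fell (-0.72, median -0.30). None of 8 other TOP genes (median -0.16) and none of 15 genes of mTORC1 and TOP control (median -0.11) passed the test in limma. Of 3 ribosomal protein genes whose symbols lie outside the pattern, Fau (-0.31) and Rps3a1 (-0.25) were lower without passing the test, and Rpl7l1 was at -0.07.

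In FR3 Klrg1- these lists had medians nearer to FR1 than the ribosomal proteins had. Their medians against FR1 were -0.12 for assembly factors, -0.06 for mitochondrial ribosomal proteins, -0.03 for initiation factors, -0.18 for elongation factors and -0.15 for other TOP genes, against -0.21 for the 59 genes. Rrp9 (-0.53), Nob1 (-0.54), Eif3k (-0.48), Mlst8 (-0.66) and Mrpl30 (-0.45) fell, and Mrps6 rose (0.68). Of all genes 3.79% fell and 4.39% rose in that comparison. Against FR2, where 2.81% of all genes rose and 1.94% fell, 4 of 41 assembly factors rose (Nhp2 0.87, Nop10 0.59, Mybbp1a 0.53, Nop16 0.52), as did 6 of 77 mitochondrial ribosomal proteins (among them Mrpl45 0.91, Mrps33 0.81 and Mrps6 0.79), Eif5a (0.66), Eif4e (0.65) and Eif1b (0.57), and no member of these lists fell. The medians were 0.18 for assembly factors, 0.20 for mitochondrial ribosomal proteins and 0.23 for initiation factors, against 0.06 for the 59 genes. The rises against FR2 and the falls in FR2 against FR1 were measured on the same FR2 arrays, so they are not separate observations. Whether the lists differ from the ribosomal proteins was not tested.

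In FR3 Klrg1+ against FR3 Klrg1- the mitochondrial ribosomal proteins had a median of -0.25, against 0.00 for all genes, and 5 of 77 fell, against 2.82% of all genes, with Mrps18b (-1.32) and Mrpl52 (-1.02) the lowest. Ltv1 (-0.64), a small subunit assembly factor, Eif3f (-0.60) and Mlst8 (-0.72), a subunit of the mTOR complexes, fell, and Eif4h (0.80) rose. The medians were -0.18 for assembly factors and -0.16 for initiation factors. Mtor, Larp1 and Myc did not pass the test in these comparisons. Mtor was at 0.05 in FR2 and -0.01 in FR3 Klrg1- against FR1, and at -0.30 in Klrg1+ against Klrg1-. Larp1 was at -0.11, -0.39 and -0.52 in the same comparisons. Myc, which drives transcription of ribosome genes, measured 10.13 and 10.33 in FR1, 9.43 and 9.64 in FR2 and 10.07 and 10.11 in FR3 Klrg1- of the first set. Its FR2 arrays lay below all others of that set (-0.69 ± 0.19 against FR1, adjusted p = 0.0508, limma with Benjamini-Hochberg adjustment).

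**Figure D5:**
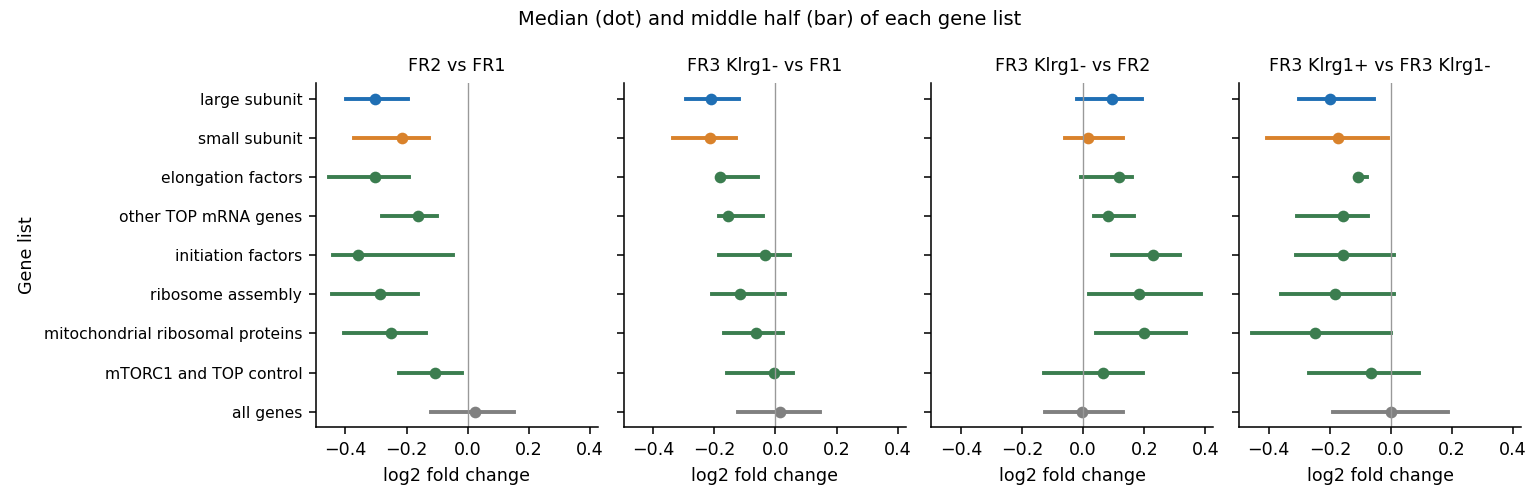
Median (dot) and interquartile range (bar) of the log2 fold change of each gene list of the translation machinery and of all genes, in the 4 comparisons within a set. In FR2 against FR1 the medians of the large subunit (-0.30), the assembly factors (-0.29) and the initiation factors (-0.36) lie left of all genes (0.02), and in FR3 Klrg1- against FR2 the assembly factors (0.18) and mitochondrial ribosomal proteins (0.20) lie to the right.

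Lists of markers of other cells had low means beside the Treg markers. Single markers in them were higher, such as Xbp1 (8.17 to 9.43), Irf4 (7.34 to 8.93) and Prdm1 (5.80 to 9.14 over the grouped arrays). The shares of all genes called are given with each comparison above. Each list of markers of B cells, plasma cells, myeloid cells, erythroid cells, platelets, NK cells and CD8 T cells had a mean under 7.2 on every grouped array. In FR2 against FR1 the single calls among them were Prdm1, higher, and Jchain, lower, and of the Treg list Ikzf2 was higher and Il2ra lower. In FR3 Klrg1- against FR1 they were Prdm1 and Klrb1c, higher, and Cd79a and Cd8b1, lower, while Ikzf2, Ctla4, Cd3e and Cd4 of the Treg list were higher and Il2ra was lower. In FR3 Klrg1- against FR2 Klrb1c and Ctla4 were higher, and in the Klrg1+ sample Prdm1, Fcgr1 and Flt3, higher, and Klrb1c, lower. Their part in the results was not tested.

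The members with and without a pyrimidine run near the start were described apart. In FR2 against FR1 the median was -0.33 for the 26 genes with a run of at least 6 C or T and -0.22 for the 21 without one, with interquartile ranges of -0.40 to -0.12 and -0.39 to -0.16 that overlapped. In FR3 Klrg1- against FR1 the medians were -0.20 and -0.21, and in Klrg1+ against Klrg1- they were -0.25 and -0.14. Genes with the run included Rps6, whose brightest probe set was near 0 in FR2 against FR1, and Rps9, the lowest small subunit gene in FR2. Rpl10 had none within the 30 bases searched.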

How the data were processed

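RNA of 20 to 50 ng per sample, extracted from FACS-sorted splenic Tregs, was amplified for Affymetrix Mouse Gene ST 1.0 microarrays. The deposited values are log2 intensities after RMA per the labels and the submitters' processing notes. The sources used here name no RMA version. Of 35556 probe sets, 21789 had 1 symbol, 1621 had several and 12146 were not in the probe table. The brightest probe set per gene left 19938 genes, with no intensity filter.

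Groups were compared with limma 3.58.1 in R 4.3.3, in 1 fit over the 9 grouped arrays with group and array set as terms and p-values adjusted by Benjamini-Hochberg over all 19938 genes (threshold 0.05). With the set as a term, a difference between groups comes from the set that holds both. The code was tested on simulated data. The number of arrays limits the precision.

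Genes were named by a rule: per comparison the 4 lowest and 2 highest members of each subunit, other members past the threshold, paralogs, Larp1, Mtor, Myc, and at most 4 called genes per list. Rps6 and the starts shown were chosen after values were seen. The members, lists, array sets and comparisons were chosen with earlier results of these data known. Gene starts are from RefSeq (GRCm38.p6). Alternatives were the model without the set, arrays of 1 set only, the replicate number as a block, array weights and an intensity trend. Others were a filter at percentile 40, quantile and cyclic loess normalization, the mean over probe sets and a log2 fold change of at least 0.5. Each grouped array except the Klrg1+ array was also left out in turn.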

Additional observations from a re-analysis of the deposited data

How the results depend on the processing

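The median of the 59 genes kept its sign under the 10 other settings and under each omitted array in the 4 comparisons within a set. Part of this was fixed by construction. Arrays of 1 set only, the replicate block, array weights, the intensity trend and the minimum change leave a fold change within a set as it was. So does omitting an array that a comparison does not use, and the Klrg1+ array was not omitted. In FR2 against FR1 it was -0.15 after quantile normalization and -0.33 to -0.21 with 1 array left out. In FR3 Klrg1- against FR2 it was 0.0014 to 0.12 with 1 array left out, and in Klrg1+ against Klrg1- it was -0.11 without the array set. Between the sets it was -0.19 after cyclic loess and -0.077 to -0.0069 with 1 array left out.

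The number of calls depended on the processing. Without the array set it was 0 in FR2 against FR1 (lower), FR3 Klrg1- against FR1 (lower), FR3 Klrg1- against FR2 (higher) and Klrg1+ against Klrg1- (lower), where limma had 14, 13, 5 and 9 at an unadjusted p under 0.05. With an intensity trend the same 4 counts were 26, 16, 4 and 11, and 1 member fell in FR3 Klrg1- against FR2. With quantile normalization they were 2, 1, 1 and 5. Over all 19938 genes the counts of the comparisons of the first set also moved, from 459, 756 and 561 in the main fit. They were 11, 217 and 27 without the array set, 738, 911 and 754 with the trend, and 318, 719 and 490 with quantile normalization. For FR2 against FR1 the count of members was 14 with the intensity filter and 5 with cyclic loess. Of all genes, 844 of 11963 and 380 of 19938 were called lower in these settings. For FR3 Klrg1- against FR1 the count of members was 5 with the mean over probe sets (774 over all genes) and 1 with a minimum log2 change of 0.5. For Klrg1+ against Klrg1- it was 1 with arrays of the second set alone, 1 with array weights and 5 with the filter. Of all genes, 421, 410 and 754 were called lower in these settings, the last of 11963, and 563 in the main fit. Without the array set, with the trend and with quantile normalization, 8, 745 and 649 of all genes were called lower. Leaving out 1 array gave 0 to 12, 0 to 3, 0 to 3 and 1 to 3. Between the sets, higher genes numbered 9 with quantile normalization, 8 with cyclic loess, 9 with the minimum change and 9 to 15 with 1 array left out, and lower genes 27 with cyclic loess. Of all genes, quantile normalization called 3915 higher between the sets, and cyclic loess 3492 higher and 3904 lower. The causes were not tested.

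Same-numbered replicates deviated together at a correlation of 0.18 (FR1 and FR2), 0.14 (FR1 and FR3 Klrg1-) and 0.02 (FR2 and FR3 Klrg1-), so the numbers were not taken as pairs. With the replicate number as a block the calls were 6, 2, 1 and 2, where 388, 705, 488 and 473 of all genes were called in the same directions. Over all genes, FR2 against FR1 had 391 higher and 459 lower genes, and 418 and 318 after quantile normalization.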

Other observations

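The array placed in no group was titled FR3 and carried the marker text of FR1. Over all genes it correlated at 0.982 to 0.986 with the arrays of the second set and at 0.926 to 0.942 with those of the first. Its median over the 59 ribosomal protein genes was 12.25. Against the mean of FR3 Klrg1- in the second set the median difference was -0.13 (interquartile range -0.26 to -0.05), with 8 of 59 genes above 0 against 51.8% of all genes. Against FR3 Klrg1+ it was 0.02, with 36 of 59 above 0 against 51.7% of all genes. Its difference from FR1 crosses the sets: the median was -0.27, with 20 of 59 above 0 against 58.5% of all genes.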
